A study of Mus musculus with 24 samples.

Results

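The E2F and retinoblastoma family is described here through its transcripts in mouse CD4 T cells, from rest to 24 h after activation. Its 10 members, E2f1 to E2f8, Rb1 and Rbl1, were taken by gene name out of the 22009 named genes of the deposited table, with earlier results of these data known. All 24 libraries come from C57BL/6 Wildtype mice, from adult spleen CD4 T cells isolated by magnetic negative selection, and the cells of the time course came from a pool of mice. There are 2 libraries of resting cells and 18 cultures, with 1 library for each of 3 conditions at 4, 8, 12, 16, 20 and 24 h. Th0 cultures received anti-CD3 and anti-CD28. Th1 cultures received IL-12 and anti-IL-4 in addition, and Th2 cultures IL-4 with antibodies to IFN-γ and IL-12. The remaining 4 libraries were made after 16 h of stimulation and 0, 1, 2 or 4 h of actinomycin, which stops transcription, in a condition that is not stated. The labels speak of purified CD4 cells and the methods of naive cells. Resting libraries carry another tag in their names than the cultures, so preparation and activation cannot be told apart.

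E2F proteins bind the promoters of genes for DNA replication and cell division, most of them as dimers with a DP partner. Pocket proteins, the products of Rb1, Rbl1 and Rbl2, bind E2F proteins in resting cells and hold their target genes down until cyclin-dependent kinases phosphorylate them. In T cells this switch is known as a gate that receptor signals open on the way from quiescence to the first division.

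Levels are given as RPKM, the reads per kilobase of transcript scaled to all mapped reads in the deposited table, which can be compared between genes. In bulk RNA, fewer cells of a type and less RNA per cell cannot be told apart. In resting cells, E2f4 had the highest mean of the 10 members, 61.8 RPKM, followed by Rb1 at 42.6, E2f2 at 40.8, Rbl1 at 25.2 and E2f8 at 21.1 RPKM. E2f6 (8.81), E2f1 (6.89), E2f5 (5.29), E2f7 (3.54) and E2f3 (2.37 RPKM) came below them. Rb1 and E2f2 overlapped between the 2 resting libraries, and no other neighbours in this order did. By 24 h the order was E2f4 (79.9), Rbl1 (21.8), E2f6 (18.7), Rb1 (17.99), E2f1 (13.1), E2f5 (10.5), E2f3 (7.51), E2f2 (5.42), E2f8 (3.64) and E2f7 (1.84 RPKM). Among these means of 3 cultures, Rbl1 overlapped with E2f6, E2f6 with Rb1, and E2f1 with E2f5. E2f2 thus went from rank 3 of the 10 members at rest to rank 8 at 24 h, and E2f1 from rank 7 to rank 5.

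**Figure D1:**
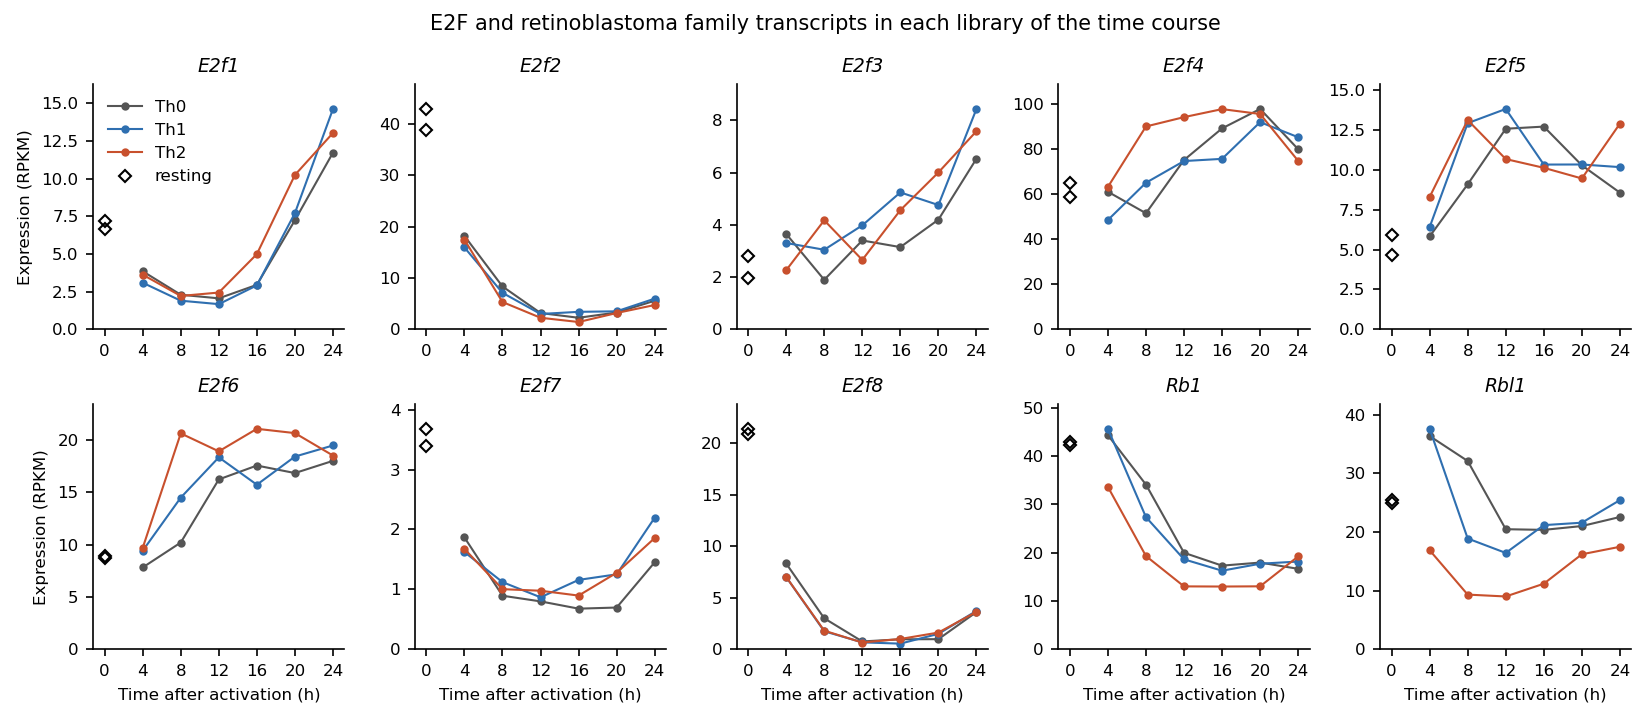
Expression in RPKM (vertical axes) of the 10 members against hours after activation (horizontal axes), with 1 point per library and open diamonds for the 2 resting libraries. E2f2, E2f7, E2f8 and Rb1 end below both resting libraries, E2f1 and E2f3 to E2f6 end above both, and Rbl1 overlaps with them. The share of all genes that end outside both resting libraries was not worked out. At 24 h, 5 of 10 members were past the threshold of limma, against 30.1% of all genes tested.

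E2f1, E2f2 and E2f3 encode the activators of the family, which switch on genes of DNA synthesis. E2f1 had 6.62 and 7.16 RPKM in the resting libraries. Its values in Th0, Th1 and Th2 were 3.85, 3.09 and 3.62 RPKM at 4 h, 2.29, 1.89 and 2.21 at 8 h, and 2.05, 1.67 and 2.44 at 12 h. The 9 cultures up to 12 h thus all lay below both resting libraries. Later, E2f1 had 2.95, 2.91 and 4.99 RPKM at 16 h, 7.24, 7.71 and 10.2 at 20 h, and 11.7, 14.6 and 13.0 at 24 h, in the same order of conditions. E2f1 is therefore lowest at 8 or 12 h in all 3 conditions, and at 20 and 24 h all 6 cultures lie above both resting libraries.

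Changes from rest were tested with limma on log2(RPKM + 0.5), a scale that understates the changes of low genes, and the threshold was an adjusted p under 0.05 with at least 2-fold. The 3 cultures of a time point served as its libraries, the 6 comparisons share the 2 resting libraries, and p-values measure only the spread between these samples. At 12 h, E2f1 fell by 1.54 on the log2 scale (standard error 0.20, adjusted p = 8.3e-06, limma). Its difference from rest at 24 h was 0.88 (adjusted p = 0.0012, limma), which is under 2-fold. That difference of E2f1 at 24 h was 1.01 with median-of-ratios scaling and 1.24 with quantile normalization, both past the threshold. Between 16 and 20 h, E2f1 rose by 1.13 (standard error 0.16, adjusted p = 0.0019, limma), in 3 of 3 conditions. This step had an adjusted p of 0.052 without Th0 and 0.28 without Th1, and over its alternatives the adjusted p was between 0.0011 and 0.28. From 12 to 24 h, a comparison added after the data were seen, E2f1 rose by 2.42 on the log2 scale (adjusted p = 2.8e-08, limma).

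E2f2 encodes the activator that lymphocytes are known to use to restrain their own division as well as to drive it. In resting cells E2f2 had 38.8 and 42.9 RPKM. Th0, Th1 and Th2 cultures had 18.2, 15.9 and 17.5 RPKM at 4 h, 8.34, 7.10 and 5.31 at 8 h, and 3.16, 2.98 and 2.24 at 12 h. Each of these time points lies below the one before it with no overlap, so the loss of E2f2 transcripts ran through the first 12 h. From then on E2f2 had 2.24, 3.39 and 1.41 RPKM at 16 h, 3.26, 3.50 and 3.16 at 20 h, and 5.56, 5.97 and 4.72 at 24 h. Resting cells held 7.54 times the mean of the 24 h cultures. By 4 h E2f2 had dropped by 1.22 on the log2 scale (adjusted p = 0.00063, limma), and it fell by 3.66 at 12 h (standard error 0.23, adjusted p = 1.2e-09, limma). For 16 h, E2f2 fell by 3.92, and at 24 h it fell by 2.81 (adjusted p = 3.1e-08, limma). Its log2 difference between 12 and 24 h was 0.85 (adjusted p = 0.0014, limma), under 2-fold, with all 3 cultures higher at 24 h.

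E2f3, the activator whose locus encodes 2 protein forms, had 1.95 and 2.79 RPKM at rest. At 4 h the values of E2f3 were 3.65, 3.30 and 2.26 RPKM in Th0, Th1 and Th2, at 8 h 1.89, 3.04 and 4.17, and at 12 h 3.40, 3.98 and 2.65. At 4, 8 and 12 h the cultures overlap with rest. For 16 h the values were 3.14, 5.24 and 4.56 RPKM, for 20 h 4.19, 4.75 and 6.00, and for 24 h 6.53, 8.43 and 7.58. All 9 cultures from 16 h on were above both resting libraries. E2f3 rose by 1.49 on the log2 scale at 24 h (standard error 0.27, adjusted p = 0.00015, limma), 3.17 times the resting mean. Between 12 and 24 h it rose by 1.07 (adjusted p = 0.0019, limma), a step of 0.98 with a pseudocount of 1, 0.99 with quantile normalization and 0.92 without Th2. Without Th1 the adjusted p of that step of E2f3 was 0.052, and its alternatives gave an adjusted p between 0.0014 and 0.052.

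In bulk RNA the activators thus changed places. E2f2 made up 81.2% and 81.9% of the summed activator RPKM at rest, 30.6% to 36.7% at 12 h and 18.7% to 23.4% at 24 h. For E2f1 this share was 13.5% and 14.0% at rest and between 49.2% and 51.4% in the 3 cultures at 24 h. E2f3 went from 4.12% and 5.28% to between 27.4% and 29.9%. At 24 h, E2f1 was the most abundant activator in all 3 cultures, and in both resting libraries it was E2f2. Whether cells other than CD4 T cells carried part of the E2f2 transcripts at rest was not tested.

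E2f4 and E2f5 encode E2F proteins that act mainly with pocket proteins as repressors in resting cells. E2f4 had 58.7 RPKM (2312 reads, Poisson 95% interval 56.4 to 61.2) and 64.8 RPKM (3040 reads, 62.5 to 67.2) at rest, intervals that cover counting error only. In Th0, Th1 and Th2, E2f4 had 61.0, 48.5 and 63.1 RPKM at 4 h, 51.5, 65.0 and 90.0 at 8 h, and 75.1, 74.6 and 94.1 at 12 h. At 16 h it had 89.1, 75.6 and 97.7 RPKM, at 20 h 97.7, 91.9 and 95.5, and at 24 h 79.9, 85.2 and 74.7. From 12 h on, all 12 cultures lay above both resting libraries, yet no time point passed the threshold. For 20 h the log2 difference of E2f4 was 0.62 (adjusted p = 0.0078, limma). For 24 h it was 0.37 (adjusted p = 0.089, limma), with 0.18 to 0.51 over the alternatives.

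E2f5 had 4.69 and 5.90 RPKM at rest. It had 5.82, 6.40 and 8.29 RPKM at 4 h in Th0, Th1 and Th2, 9.09, 12.9 and 13.1 at 8 h, and 12.6, 13.8 and 10.7 at 12 h. Later values were 12.7, 10.3 and 10.1 RPKM at 16 h, 10.3, 10.3 and 9.46 at 20 h, and 8.57, 10.2 and 12.9 at 24 h. All 15 cultures from 8 h on were above both resting libraries. At 8 h E2f5 rose by 1.07 (adjusted p = 0.00031, limma), at 12 h by 1.15 (standard error 0.19, adjusted p = 9.7e-05, limma), and its difference of 0.92 at 24 h was under 2-fold. Without resting replicate 1, the differences of E2f5 were 0.91 at 8 h and 1.00 at 12 h, both short of the threshold, and at 8 h the difference was 0.99 without Th1 and 0.98 without Th2. Over the alternatives the adjusted p of E2f5 was between 2.3e-05 and 0.017 at 8 h.

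E2f6 encodes a repressor that needs no pocket protein and works with Polycomb proteins. At rest it had 8.93 RPKM (427 reads, Poisson 95% interval 8.10 to 9.81) and 8.69 RPKM (495 reads, 7.94 to 9.49). Its values in Th0, Th1 and Th2 were 7.82, 9.42 and 9.69 RPKM at 4 h, 10.2, 14.5 and 20.7 at 8 h, and 16.3, 18.4 and 18.9 at 12 h. From 8 h on, all 15 E2f6 values were above both resting libraries, with 17.6, 15.7 and 21.1 RPKM at 16 h, 16.9, 18.4 and 20.7 at 20 h, and 18.03, 19.5 and 18.5 at 24 h. E2f6 rose by 1.04 on the log2 scale both at 20 h (adjusted p = 0.00031, limma) and 24 h (standard error 0.20, adjusted p = 0.00027, limma), where its mean was 2.12 times that of rest. These differences lie close to 2-fold. The 20 h value of E2f6 was 0.96 without Th2 and 1.00 with a pseudocount of 1, which did not pass, and with the erythroid marker genes left out of the scaling it was 0.94 at 20 h and 0.93 at 24 h. Over its alternatives the adjusted p of E2f6 was between 6.7e-05 and 0.0088 at 20 h.

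E2f7 and E2f8 encode the atypical members, which bind DNA without a DP partner and repress genes that the activators switch on. E2f7 had 3.40 and 3.68 RPKM at rest. In Th0, Th1 and Th2 it had 1.87, 1.62 and 1.68 RPKM at 4 h, 0.892, 1.12 and 1.00 at 8 h, and 0.798, 0.866 and 0.976 at 12 h. E2f7 then had 0.676, 1.16 and 0.895 RPKM at 16 h, 0.695, 1.25 and 1.28 at 20 h, and 1.45, 2.20 and 1.86 at 24 h. All 18 cultures were below both resting libraries. For 12 h, E2f7 fell by 1.55 on the log2 scale (standard error 0.19, adjusted p = 5.5e-06, limma). Its difference of -0.80 at 24 h was under 2-fold (adjusted p = 0.0018, limma). With quantile normalization the difference of E2f7 was -0.90 at 12 h and -0.18 at 24 h (adjusted p = 0.46, limma), and it stayed under 2-fold at 8, 16 and 20 h too.

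E2f8 had 20.9 and 21.4 RPKM at rest. The cultures had 8.31, 7.0 and 7.0 RPKM at 4 h in Th0, Th1 and Th2, 2.99, 1.73 and 1.79 at 8 h, and 0.740, 0.651 and 0.637 at 12 h. Its lowest value of the time course was 0.528 RPKM, in Th1 at 16 h, where Th0 had 0.950 and Th2 0.981. At 20 h E2f8 had 0.963, 1.48 and 1.60 RPKM, and at 24 h 3.59, 3.71 and 3.61, so that the 3 cultures at 24 h lay above all 9 cultures from 12 to 20 h and below both resting libraries. Already at 4 h E2f8 fell by 1.45 (adjusted p = 5.6e-05, limma). The E2f8 level at 12 h fell by 4.2 (standard error 0.20, adjusted p = 5.2e-11, limma), while for 24 h it fell by 2.39 (adjusted p = 6.1e-08, limma). The fall of E2f8 at 12 h is the largest difference from rest among the 10 members and 6 time points. Between 20 and 24 h, E2f8 rose by 1.18 (standard error 0.19, adjusted p = 0.0064, limma) in 3 of 3 conditions. That step was 0.99 with a pseudocount of 1, and its adjusted p was 0.072 without Th0 and 0.34 without Th1, with a range over the alternatives from 0.0036 to 0.34. From 12 to 24 h E2f8 rose by 1.82 (adjusted p = 4.5e-06, limma), and every alternative of this comparison left it past the threshold.

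Counts of members past the threshold are set here beside the share of all genes. At 4 h, 2 of 10 members passed it (E2f2 and E2f8, both down), against 10.6% of the 10897 genes tested. For 8 h the count was 5 (E2f5 up, E2f1, E2f2, E2f7 and E2f8 down) against 18.9%, and for 12 h it was 6, with Rb1 down as well, against 27.1%. At 16 h 4 members passed (E2f2, E2f7, E2f8 and Rb1, all down) against 25.7% of genes, and at 20 h 5 (E2f6 up and the same 4 down) against 29.0%. The count at 24 h was 5 (E2f3 and E2f6 up, E2f2, E2f8 and Rb1 down) against 30.1%. These counts rest on members close to 2-fold. At 16 h E2f5 and E2f6 differed from rest by 0.997 and 0.992, just under 2-fold, and 1 or 2 more members passed there in each of 5 fits that left out 1 resting library or condition. E2f6 passed without resting replicate 1 (1.01), Th0 (1.01) or Th1 (1.09), E2f5 without resting replicate 2 (1.15), Th1 (1.04) or Th2 (1.05), and E2f1 was past it without Th2 (-1.11). In the same 5 fits, 5 to 7 members passed at 12 h, where E2f6 did without Th0 (1.04) and E2f5 did not without resting replicate 1, and 4 to 7 at 20 h. There E2f3 passed without resting replicate 2 (1.15) or Th0 (1.04), E2f5 without resting replicate 2 (1.02), and E2f6 did not without Th2. At 24 h E2f5 passed without resting replicate 2 (1.07) or Th0 (1.05). Scaling brought more members past it, all up. With quantile normalization E2f3 passed at 12 h (1.105), 16 h (1.32) and 20 h (1.51). E2f5 did at 16 h (1.375) and 20 h (1.27), and E2f6 at 12 h (1.23) and 16 h (1.20), while E2f7 no longer passed from 8 to 20 h. With median-of-ratios scaling E2f6 passed at 12 h (1.095), E2f5 and E2f6 at 16 h (1.06 each), and E2f3 at 20 h (1.01). E2f1 and E2f5 passed at 24 h under both scalings. With 10 members, each gene weighs 10% of the list, and at 4 h the share of members is within 1 gene of that of all genes. When genes under a mean of 5 RPKM were left out, which removes E2f3, E2f7 and E2f8, 1 of 7 members passed at 4 h (7.62% of genes under the same filter), 3 at 8 h (15.7%), 4 at 12 h (24.2%), 2 at 16 h (22.9%), 3 at 20 h (26.7%) and 3 at 24 h (28.2%).

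Steps between neighbouring time points place the changes of members. From 4 to 8 h, E2f2 fell by 1.27 and E2f8 by 1.60, the 2 members of 10 past the threshold against 4.97% of 10737 genes. The same 2 members fell from 8 to 12 h, E2f2 by 1.16 and E2f8 by 1.15, against 1.44% of genes, where the step of E2f8 was 0.90 in size with a pseudocount of 1 and did not pass without Th0 or without Th1. From 12 to 16 h no member passed the threshold of limma, against 0.289% of genes, and 1 had an unadjusted p under 0.05, against 10.0% of genes. From 16 to 20 h the 1 member was E2f1 (up), against 0.447%, and from 20 to 24 h it was E2f8 (up), against 0.512%. Over the added comparison of 24 h with 12 h, 3 of 10 members rose (E2f1, E2f3 and E2f8) and none fell, against 5.73% of genes. Of these 3, only E2f1 has a mean of 5 RPKM or more over the cultures.

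**Figure D2:**
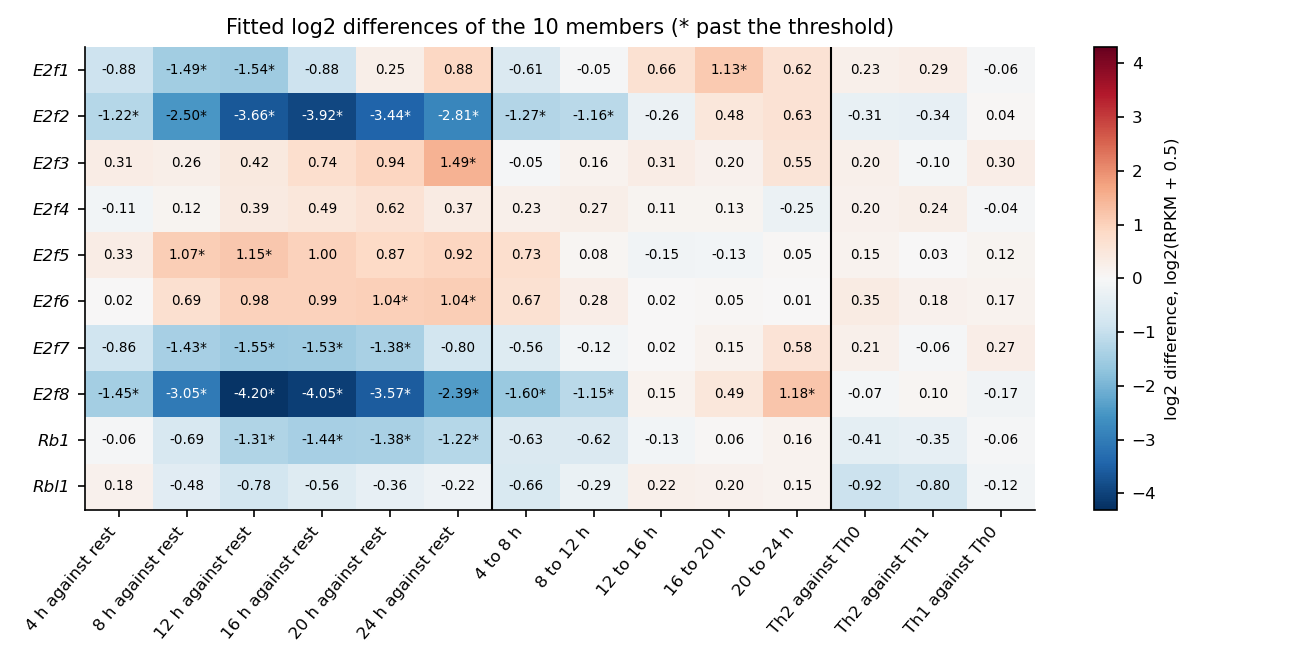
Fitted log2 differences of log2(RPKM + 0.5) for the 10 members (rows) in the comparisons with rest, the steps between time points and the differences between conditions (columns); red is higher, blue is lower, and a star marks the threshold. The deepest blue is E2f8 at 12 h (-4.2).

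The make-up of the E2F transcripts changed with these members. Of the summed RPKM of E2f1 to E2f8, the activators made up 32.9% and 33.6% at rest, 5.52% to 7.55% in the 3 cultures at 12 h, and 17.6% to 19.4% at 24 h. E2f4 and E2f5 went from 44.1% and 45.0% to between 75.6% and 79.0% at 12 h and between 63.7% and 65.4% at 24 h. The atypical pair held 15.9% and 16.9% at rest, 1.22% to 1.35% at 12 h and 3.73% to 4.00% at 24 h. At 12 h the E2F transcripts were thus mostly those of the repressor E2f4 and of E2f5, and the shares of activators and atypical members were lower than at rest in every culture of the time course. The sum itself was 144.0 and 157.3 RPKM at rest and between 135.3 and 149.8 RPKM at 24 h, which overlap. From 4 to 16 h the sum lay below both resting libraries in every culture, with 114.1 to 132.7 RPKM at 12 h.

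**Figure D3:**
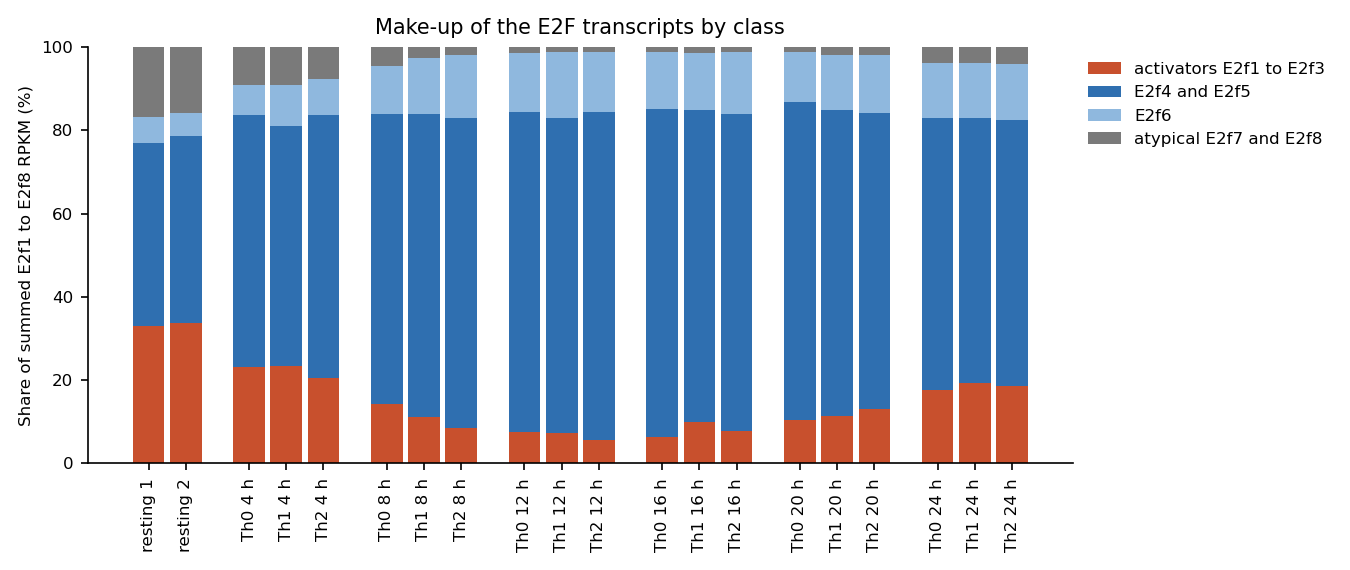
Share of each class in the summed RPKM of E2f1 to E2f8 (vertical axis, percent) in the 20 libraries of the time course (horizontal axis). The activator share is 32.9% and 33.6% at rest and lowest in Th2 at 12 h (5.52%), and E2f4 with E2f5 fill most of each bar from 4 h on.

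E2F proteins are known to act on genes of their own family, and the stretches below show where known motif letters lie near the starts of E2f2, E2f3, E2f7, E2f8 and Rbl1. RefSeq promoter windows of GRCm38.p6, from 250 bases before to 50 bases after a start, were at hand for 7 of 10 members, and E2f4, E2f5 and Rb1 have none there. They were searched on both strands for the E2F letters TTTCCCGC, TTTCGCGC, TTTGCCGC and TTTGGCGC, and for the CHR letters TTTGAA and TTCGAA, a motif known from genes of cell division. Capitals mark a match, written as the reverse complement where the motif lies on the other strand, and each stretch reads 5′ to 3′ on the strand of its gene. In E2f2 the E2F letters lie after the RefSeq start (chr4:136172305-136172323, plus strand) and the CHR letters before the start of a second window (chr4:136180725-136180781, plus strand).
E2f2 window 1: gcatatagTTTGGCGCtaa
E2f2 window 2: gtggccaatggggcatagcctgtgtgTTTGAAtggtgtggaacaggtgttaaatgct
E2f3 has both motifs within the last bases before its start (chr13:29986064-29986112, minus strand).
E2f3: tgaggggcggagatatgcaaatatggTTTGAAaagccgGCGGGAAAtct
E2f7 has an E2F match further upstream (chr10:110745215-110745274, plus strand), and E2f8 a CHR match just before its start (chr7:48881597-48881642, minus strand).
E2f7: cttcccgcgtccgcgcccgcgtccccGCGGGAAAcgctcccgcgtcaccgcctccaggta
E2f8: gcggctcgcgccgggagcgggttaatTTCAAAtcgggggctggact
Rbl1 has an E2F match before its start (chr2:157204535-157204578, minus strand).
Rbl1: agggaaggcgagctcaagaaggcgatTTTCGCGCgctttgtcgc
E2F letters were thus in the windows of 4 of 7 members (E2f2, E2f3, E2f7 and Rbl1), against 704 of 27025 genes (2.60%), and CHR letters in those of 3 of 7 (E2f2, E2f3 and E2f8), against 5854 of 27025 genes (21.7%). The windows of E2f1 and E2f6 hold neither, which says only that these letters are not in those windows. The RefSeq start of E2f1 lies 466 bases inside the GENCODE gene, the RefSeq start of window 2 of E2f2 lies 8388 bases inside, and a match describes letters, not a bound site.

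Rb1 and Rbl1 encode pocket proteins, Rb1 the one that holds the activators and Rbl1 one that pairs mainly with E2F4 and E2F5. Rb1 had 42.3 and 42.8 RPKM at rest. In Th0, Th1 and Th2, Rb1 had 44.3, 45.6 and 33.6 RPKM at 4 h, 34.1, 27.3 and 19.3 at 8 h, and 20.0, 18.6 and 13.0 at 12 h. At 16 h it had 17.3, 16.2 and 13.0 RPKM, at 20 h 17.9, 17.7 and 13.0, and at 24 h 16.6, 18.1 and 19.2. All 15 cultures from 8 h on lay below both resting libraries, and Th2 was the lowest of the 3 conditions from 4 to 20 h. On the log2 scale Rb1 fell by 1.31 at 12 h (standard error 0.22, adjusted p = 0.00011, limma). At 16 h it fell by 1.44 (adjusted p = 5e-05, limma), and at 24 h it fell by 1.22 (adjusted p = 0.00017, limma), past the threshold under every alternative at these 3 times. No step of Rb1 between neighbouring time points passed the threshold, and its values at 12 and 24 h overlap.

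Rbl1 had 25.5 and 24.9 RPKM at rest. At 4 h it had 36.4 RPKM in Th0 and 37.6 in Th1 but 16.9 in Th2, and at 8 h 32.1, 18.9 and 9.31 RPKM. The 3 conditions thus stood on both sides of the resting libraries at 4 and 8 h. At 12 h Rbl1 had 20.5, 16.4 and 8.99 RPKM, at 16 h 20.4, 21.2 and 11.2, at 20 h 21.0, 21.6 and 16.2, and at 24 h 22.6, 25.4 and 17.5. No time point passed the threshold against rest for Rbl1, with log2 differences from -0.78 at 12 h (adjusted p = 0.14, limma) to 0.18 at 4 h. At 24 h it was -0.22 (standard error 0.44, adjusted p = 0.68, limma), and the cultures overlap with rest. The ratio of Rb1 to Rbl1 was 1.66 and 1.72 at rest, and 0.713, 0.737 and 1.10 at 24 h.

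Rbl1 is also the member in which Th2 cultures stood apart most. It was lower in Th2 than in Th0 at 6 of 6 time points and lower than in Th1 at 6 of 6. The share of all genes that keep their sign over the time points was not worked out, so such counts describe these genes only. Over the time points Rbl1 differed by -0.92 on the log2 scale in Th2 against Th0 (standard error 0.14, adjusted p = 0.00022, limma) and by -0.80 in Th2 against Th1 (adjusted p = 0.001, limma), both under 2-fold. In such fits the time points stand in for replicates of a condition, and the cells came from a pool of mice. The difference of Rbl1 from Th0 was -1.03 without 20 h and without 24 h, past the threshold, and -0.68 over 12 to 24 h only. With no time factor the adjusted p of Rbl1 was 0.045 against Th0 and 0.098 against Th1, the highest of ranges that start at 0.0002 and 0.00044. Rb1 was lower in Th2 than in Th0 at 5 of 6 time points, by -0.41 in the fit (adjusted p = 0.0063, limma), and differed by -0.35 from Th1 (adjusted p = 0.026, limma), and with no time factor these adjusted p were 0.61 and 0.99, the highest of ranges that start at 0.00028 and 0.0017. E2f6 went the other way, higher in Th2 than in Th0 at 6 of 6 time points with a difference of 0.35 (adjusted p = 0.019, limma), where the adjusted p was 0.066 without 8 h, 0.13 over 12 to 24 h only and 0.59 with no time factor, in a range that starts at 0.0087. Against Th1, E2f6 differed by 0.18 (adjusted p = 0.28, limma) and was higher in Th2 at 5 of 6 time points. E2f2 was lower in Th2 than in Th0 at 6 of 6 time points too, with a difference of -0.31 (adjusted p = 0.062, limma).

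Between conditions, no member passed the threshold in limma. For Th2 against Th0 the count was 0 of 10, against 2.01% of genes, and 4 members had an unadjusted p under 0.05, against 41.2% of genes. Th2 against Th1 also gave 0 (1.96% of genes), with 5 members at an unadjusted p under 0.05 (25.3% of genes). Th1 against Th0 gave 0 (0.494%), with 1 member at an unadjusted p under 0.05 (16.4%). A difference of slopes over the hours passed for 1 member, Rbl1 in Th2 against Th0, at 0.06 log2 units per hour (standard error 0.015, adjusted p = 0.04, limma), against 5.15% of genes. By time point, the log2 difference between Th2 and Th0 for Rbl1 was -1.09 at 4 h, -1.73 at 8 h, -1.14 at 12 h, -0.84 at 16 h, -0.37 at 20 h and -0.36 at 24 h. This slope of Rbl1 did not pass without 8, 12, 16, 20 or 24 h, nor with no filter, no intensity trend or median-of-ratios scaling, and its adjusted p ranged from 0.002 to 0.17 over the alternatives. Without 4 h, the slopes of E2f4 (-0.054), Rb1 (0.054) and E2f6 (-0.045) passed as well, and 3035 genes did instead of 553. Slopes of Th2 against Th1 passed for 0 members in limma, against 1.09% of genes, with 2 at an unadjusted p under 0.05, against 18.2%. Those of Th1 against Th0 passed for 0 members, against 0.0279%, with 0 at an unadjusted p under 0.05, against 9.23%.

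**Figure D4:**
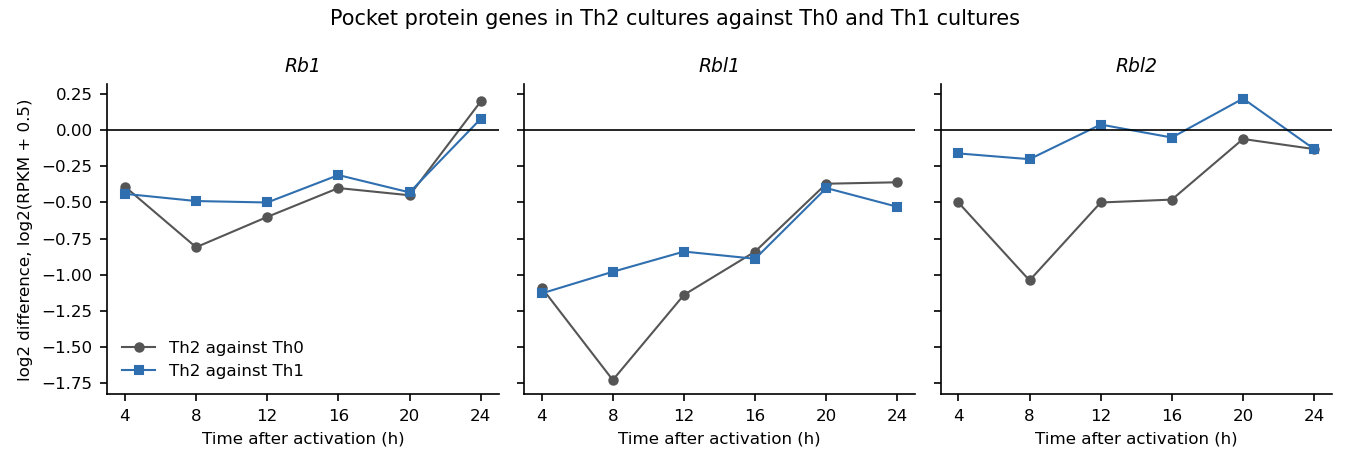
Log2 differences between Th2 and Th0 cultures (circles) and between Th2 and Th1 cultures (squares) for the pocket protein genes Rb1, Rbl1 and Rbl2, on log2(RPKM + 0.5) (vertical axis), against hours after activation (horizontal axis). Rbl1 lies below 0 at all 6 time points against both, with its lowest value of -1.73 at 8 h against Th0.

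Among partners of the family, Tfdp1 encodes the main DP subunit and had 35.0 and 38.6 RPKM at rest and 129.0 to 145.6 RPKM at 24 h, a rise of 1.86 on the log2 scale (adjusted p = 1.4e-05, limma). Tfdp2, the other DP gene listed, had 19.8 and 20.5 RPKM at rest and 3.40 to 4.21 RPKM at 24 h, and it fell by 2.29 (adjusted p = 4.4e-07, limma). The DP genes thus moved in opposite directions, and both passed the threshold at 24 h. Rbl2, the pocket gene outside the 10 members, had 50.5 and 49.2 RPKM at rest and 15.7 to 17.2 RPKM at 24 h and fell by 1.55 (adjusted p = 4.7e-05, limma). Rbl2 was the 1 of 8 listed components of the DREAM and MuvB complexes past the threshold at 24 h, against 30.1% of all genes. The median of these 8 was -0.24, against -0.04 for all genes. Mybl2, an activator of late cell cycle genes in that list, had 23.8 and 20.1 RPKM at rest, 2.30 to 2.82 RPKM at 12 h and 13.1 to 17.6 RPKM at 24 h, and rose by 2.38 from 12 to 24 h (adjusted p = 2.7e-08, limma).

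The kinase arm that acts on the pocket proteins moved both ways. Of 8 tested genes of G1 cyclins and kinases, 3 rose (Ccnd2, Cdk4 and Cdc25a) and 1 fell (Ccne2) at 24 h, with a median of 0.71, against 30.1% of all genes past the threshold and a median of -0.04. Ccne2 lay at the edge of 2-fold, with a difference of -1.0002. Ccnd2, a D-type cyclin, had 70.6 and 68.2 RPKM at rest and 211.7 to 238.0 RPKM at 24 h. Ccne1, a cyclin that E2F proteins switch on, had 27.0 and 28.6 RPKM at rest, 4.42 to 5.89 at 12 h and 18.5 to 25.5 RPKM at 24 h. Of the 4 tested CDK inhibitors 1 rose at 24 h, Cdkn1a with a log2 difference of 2.75. The other 3 fell, with -2.57 for Cdkn1b, -2.20 for Cdkn2c and -2.89 for Cdkn2d, and the median of the 4 was -2.38. Cdkn1b was the 1 gene in these lists that passed the threshold in Th2 against Th0, at -1.07 (adjusted p = 1e-05, limma).

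Targets of the family are given here as 2 lists, which were not tested against each other. Past the threshold were 10.6% of all genes at 4 h, 27.1% at 12 h, 30.1% at 24 h and 5.73% from 12 to 24 h. Of 24 listed G1/S genes regulated by E2F, 0 rose and 9 fell at 4 h (median -0.89, against -0.04 for all genes) and 0 rose and 11 fell at 12 h (median -0.93, against -0.07). At 24 h, 14 rose and 3 fell (median 1.27, against -0.04), and from 12 to 24 h 22 rose and 0 fell (median 1.90, against -0.01). Mcm3, a subunit of the replicative helicase, had 35.8 and 38.5 RPKM at rest, 29.4 to 43.0 at 12 h and 152.3 to 168.1 RPKM at 24 h. Rrm2, a subunit of ribonucleotide reductase, had 139.2 and 135.2 RPKM at rest, 7.37 to 8.76 at 12 h and 45.5 to 57.0 RPKM at 24 h, so it was still below rest. Of 16 listed G2/M genes regulated by DREAM, 0 rose and 10 fell at 4 h (median -1.07), 0 rose and 16 fell at 12 h (median -3.01), and 0 rose and 10 fell at 24 h (median -1.27). From 12 to 24 h, 11 of these 16 rose and 0 fell (median 1.38). Mki67, a marker of dividing cells, had 94.0 and 91.8 RPKM at rest, 3.87 to 4.88 at 12 h and 8.93 to 11.7 RPKM at 24 h. The E2F letters were in the windows of 9 of 18 G1/S genes and 1 of 14 G2/M genes with a window, against 2.60% of all genes, and the CHR letters in 3 of 18 and 10 of 14, against 21.7% of all genes.

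Lists nearer to single members are given beside 30.1% of all genes past the threshold and a median of -0.04 at 24 h. Of 9 genes of the Polycomb complex of E2F6, 1 rose and 0 fell at 24 h (Pcgf6, by 1.17, median 0.16), and of 4 germline genes that E2F6 represses only Tuba3a (0.335 and 0.422 RPKM at rest) was tested, which rose by 1.48 at 4 h and by 1.77 at 12 h and differed by 0.14 at 24 h. Of 8 co-repressors of RB, 2 rose (Rbbp7 and Suv39h1) and 1 fell (Arid4a) at 24 h (median 0.42). Of 4 tested apoptotic genes that E2F1 switches on, 0 rose and 1 fell at 24 h (Bbc3, -1.27, median -0.61).

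Transcripts most like each member were sought by the Pearson correlation of log2(RPKM + 0.5) over the 20 libraries of the time course, which share their times and scale, among 10897 genes. For E2f1 they were Mcm10, Lig1 and Uhrf1 (0.98 each), for E2f2 Kif23 (0.98), Mki67 and Ube2c (0.97 each), and for E2f8 Anln (0.99), Plk1 and Cenpe (0.98 each). For E2f7 they were Gtf2ird1 (0.94), Ccnf and Casc5 (0.94 each). E2f3 was most like Cpd (0.91), E2f4 like Cherp (0.98), E2f5 like Twistnb (0.95), E2f6 like Utp15 (0.99), Rb1 like Snx14 (0.98) and Rbl1 like Sntb1 (0.94). Among the members, E2f2 and E2f8 had a correlation of 0.95, E2f2 and Rb1 of 0.91, E2f7 and E2f8 of 0.90, and E2f6 and Rb1 of -0.95. E2f1 had 0.11 with E2f2, so the activators do not share 1 course.

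Markers of other cells move with the same comparisons. All 8 listed CD4 T cell markers were above 0 in all 20 libraries of the time course, with sums of 2075 and 2098 RPKM at rest and 1328 to 1611 RPKM at 24 h. Erythroid marker genes, of which 15 of 18 listed were in the table and all 15 were above 0 in all 20 libraries, summed to 39315 and 42863 RPKM at rest, with Hbb-bs the most abundant at 13994 and 15013 RPKM. In Th0, Th1 and Th2 the erythroid sum was 34463, 29581 and 47355 RPKM at 4 h, 28595, 19421 and 15053 at 8 h, and 8346, 5364 and 5109 at 12 h. It was 2041, 1969 and 1472 RPKM at 16 h, 613.2, 387.9 and 448.9 at 20 h, and 205.6, 143.1 and 213.5 at 24 h. At 4 h the sum was below both resting libraries in Th0 and Th1 and above both in Th2. From 8 h on it was lower at each time point than at the one before in 3 of 3 conditions. E2f2 and E2f8 drop to 12 or 16 h, and E2f1, E2f2 and E2f8 are higher at 24 h than at 16 h in 3 of 3 conditions. At 4 h, where E2f2 and E2f8 had passed the threshold, 6 of 15 erythroid genes had fallen (median -0.94), and at 12 h, at 24 h and from 12 to 24 h all 15 had (medians -4.27, -6.93 and -2.77). Hbb-bs, which weighs most in the sum at rest, differed by -0.20 at 4 h, so the sum does not follow every gene of the list. The paper's methods for skewing cultures name a lysis of red blood cells ahead of the selection, and the labels name none. The part of erythroid transcripts in the falls of E2f2, E2f8, E2f7, Rb1 and the division genes from rest was not tested.

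**Figure D5:**
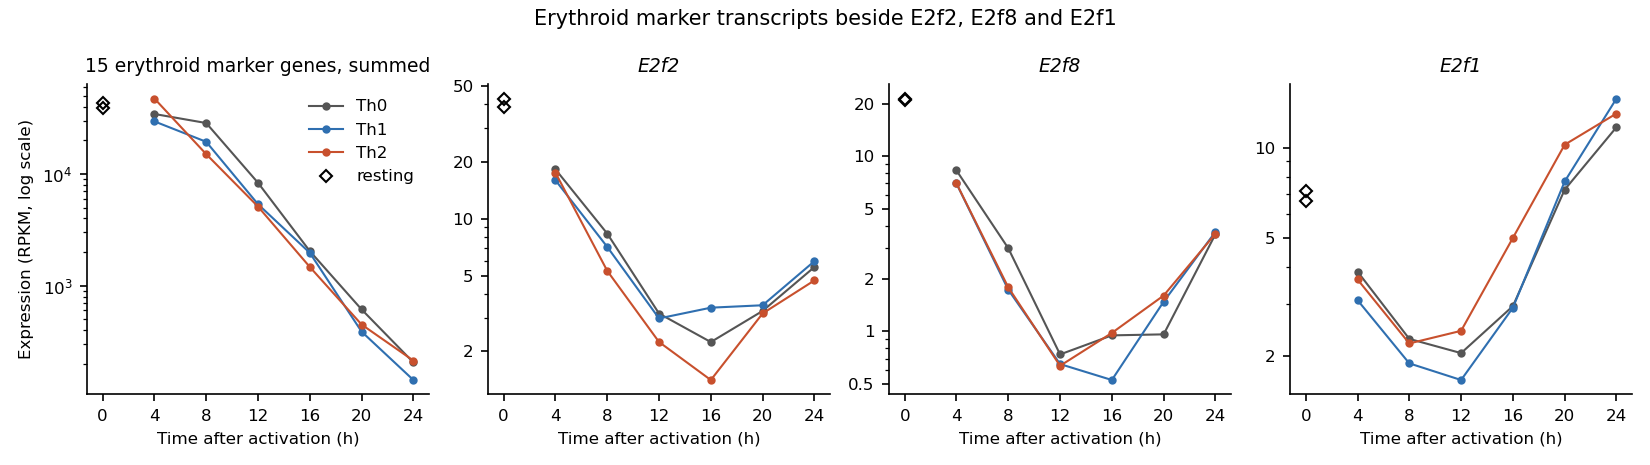
Summed RPKM of 15 erythroid marker genes and RPKM of E2f2, E2f8 and E2f1 (vertical axes, log scale) against hours after activation (horizontal axes), with open diamonds for the resting libraries. From 8 h on the erythroid sum is lower at each time point than at the one before, down to between 143.1 and 213.5 RPKM at 24 h. The 3 members are higher at 24 h than at 16 h in all 3 conditions. The part of erythroid transcripts in their courses was not tested.

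Other lists fell from rest as well. Macrophage markers (9 of 9 in the table, all above 0 at rest, C1qa the most abundant at 109.6 and 107.3 RPKM) summed to 571.1 and 592.2 RPKM at rest, 46.5 to 78.0 at 4 h and 8.06 to 12.6 RPKM at 24 h, and 7 of 8 tested fell at 4 h and 8 of 8 at 24 h. Plasma cell markers, led by Jchain, summed to 792.0 and 792.9 RPKM at rest and 28.5 to 40.5 RPKM at 24 h, where 3 of 3 fell. B cell markers summed to 66.3 and 76.2 RPKM at rest and 9.33 to 18.6 RPKM at 24 h, with 6 of 6 down. NK cell markers (3 of 3), dendritic cell markers (2 of 2), platelet markers (3 of 3) and neutrophil markers (2 of 4) fell at 24 h too, from sums of at most 37.3 RPKM at rest, and none of the 2 CD8 markers passed the threshold. Whether these cells carried any of the E2F transcripts at rest was not tested. The paper's methods name a sort for naive CD4 T cells after the magnetic selection, while its legend for the time course speaks of purified CD4 T cells.

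After actinomycin, no member changed its share of the RNA past the threshold, and with no intensity trend E2f7 did (0.21 per hour, adjusted p = 0.037, limma, in a range from 0.037 to 0.82 over the alternatives). Here RPKM is relative to the RNA that is left, so a slope of 0 means loss at the pace of the typical transcript. E2f1 had 4.15, 5.01, 4.2 and 5.97 RPKM after 0, 1, 2 and 4 h, and E2f4 had 80.1, 86.4, 77.8 and 95.5 RPKM. Rb1 had 14.6, 10.7, 12.6 and 12.5 RPKM, and Rbl1 12.3, 10.1, 12.2 and 14.6 RPKM. E2f7 had 0.895, 0.979, 1.14 and 1.96 RPKM, the steepest slope of the 10 members at 0.21 per hour (standard error 0.10, adjusted p = 0.14, limma). The lowest slope was -0.03 per hour, that of E2f3, with 4.42, 4.83, 3.58 and 4.25 RPKM. E2f2 (4.51, 3.44, 2.78 and 4.84 RPKM) and E2f8 (1.96, 1.37, 1.10 and 1.98 RPKM) were lowest at 2 h, as were E2f3 and E2f4. E2f5 (9.73, 8.15, 10.1 and 10.7 RPKM) and E2f6 (17.6, 17.9, 18.2 and 20.1 RPKM) ended highest at 4 h, as did every other member but E2f3 and Rb1. In limma, 0 of 10 members passed, against 20.9% of 10571 genes, and 1 had an unadjusted p under 0.05, against 33.0% of genes. The erythroid markers summed to 2534, 1410, 1158 and 2290 RPKM in these 4 libraries. Their low at 2 h is one that E2f2, E2f3, E2f4 and E2f8 show as well, and the part of erythroid transcripts in it was not tested. With 1 library per time, a change of the kind between 2 and 4 h cannot be told apart from a difference between libraries.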

How the data were processed

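RNA sequencing values of 24 libraries were used: 20 of the time course (2 resting, 18 cultures) and 4 with actinomycin. The deposited table holds RPKM per gene made by the authors, with 22010 entries, of which 1 has no name and a sum of 0. The submitters' processing notes name BWA and GRCm38 with no role or version, and the counting method is not given in the sources used here. All columns of the table were mapped to samples. Mapped reads, worked out from the steps between values, were between 17512385 and 33017133 over the time course (19759081 and 23541816 at rest) and between 18052931 and 25735543 with actinomycin. E2f4 and E2f6 lie on whole reads within a tolerance of 0.02 reads, so exact Poisson 95% intervals are given for them, and the fewest estimated reads of any member were 41 (E2f8, Th2 at 12 h).

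Genes whose mean was 1 RPKM or more were put on the scale log2(RPKM + 0.5) and tested in R 4.3.3 by limma 3.58.1, which used an intensity trend, and p-values were adjusted by Benjamini-Hochberg over all genes tested. The threshold was an adjusted p under 0.05, with at least 2-fold for differences and no fold for slopes. Comparisons with rest used the time point as the only factor over 20 libraries. Steps between time points and differences between conditions used time point and condition over the 18 cultures, slopes their interaction with hours, and actinomycin hours over 4 libraries. The fits were run on simulated data with 200 changed genes and independent noise. Such data hold no link between libraries of a pool and no shift in cell make-up, so they do not test for these. Python 3.11.15 with numpy 2.4.6, pandas 2.3.3, scipy 1.17.1 and matplotlib 3.10.9 made the tables and figures.

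The members and the gene lists were chosen with earlier results of these data known. Lists of partners and targets are given by counts, most with medians, with the share past the threshold or the median of all genes tested in the same paragraph. Genes are named if they are members, partners, DREAM or MuvB components, G1 cyclins, kinases or CDK inhibitors, among the 2 largest rises or falls of another list at 24 h, the most abundant gene of a marker list, or among the 3 genes most like a member. Alternatives were a pseudocount of 0.1 or 1, a filter at 5 RPKM or none, scaling by quantiles, by upper quartile or by median of ratios, scaling without the erythroid marker genes, no intensity trend, only the libraries compared, no time factor, only 12 to 24 h, and leaving out each resting library, condition, time point or actinomycin library. The comparison of 24 h with 12 h was added after the data were seen.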

Additional observations from a re-analysis of the deposited data

Results flagged for a closer look

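At single time points, some members lay above both resting libraries in some conditions and below both in others, with 1 culture each, and these differences were not tested. E2f3 at 8 h was above rest in Th1 and Th2 (3.04 and 4.17 RPKM) and below in Th0 (1.89 RPKM), where Th1 and Th0 lie close to the resting values of 2.79 and 1.95 RPKM, and no counting interval was worked out for E2f3. E2f4 at 8 h was above in Th2 (90.0 RPKM) and below in Th0 (51.5 RPKM), and Th1 (64.99 RPKM, Poisson 95% interval 62.9 to 67.2) was above by less than counting error. E2f6 at 4 h was above in Th1 and Th2 (up to 9.69 RPKM, Poisson 95% interval 8.83 to 10.6) and below in Th0 (7.82 RPKM, 7.12 to 8.57), and these intervals overlap with those at rest. Rb1 at 4 h was above in Th0 and Th1 (up to 45.6 RPKM) and below in Th2 (33.6 RPKM). Rbl1 at 4 h was above in Th0 and Th1 (up to 37.6 RPKM) and below in Th2 (16.9 RPKM), and at 8 h above in Th0 (32.1 RPKM) and below in Th1 and Th2 (down to 9.31 RPKM). For Rbl1, the slopes of Th2 and Th0 over the hours differed by 0.057 log2 units per hour in the interaction test (adjusted p = 0.04, limma), which 8 of 14 alternatives did not bring past the threshold.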

How the results depend on the processing

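A selection of 62 differences and slopes of members and partners, most of them past the threshold, gave 873 values under their alternatives. Of these, 836 kept their side of the threshold, 33 no longer passed it, 4 newly passed it and 0 turned their direction. Outside this selection more members newly passed, such as E2f5 and E2f6 at 16 h. Directions turned there for E2f3 from 4 to 8 h (-0.448 to 0.329), for example. The slope of E2f2 after actinomycin also turned (-0.305 to 0.175). The cause was not tested. When genes under a mean of 5 RPKM were left out, 646 genes passed at 4 h (1152 otherwise) and 1334 at 8 h (2059), 70 from 8 to 12 h (155), 30 from 20 to 24 h (55) and 375 from 12 to 24 h (615), and members past the threshold were 1 at 4 h, 3 at 8 h, 2 at 16 h, 3 at 20 h, 3 at 24 h, 1 from 4 to 8 h, 1 from 8 to 12 h, 0 from 20 to 24 h and 1 from 12 to 24 h. With a pseudocount of 1, 17 genes passed from 12 to 16 h (31), and 1 member from 8 to 12 h and 0 from 20 to 24 h. A pseudocount of 0.1 gave 73 genes from 16 to 20 h (48). With no time factor, Th2 against Th0 gave 79 genes (216), Th2 against Th1 gave 103 (210) and Th1 against Th0 gave 19 (53). With no filter, the slope of Th2 against Th0 gave 258 genes (553), that of Th2 against Th1 gave 68 (117) and that after actinomycin 698 (2213). Members past the threshold in the slope of Th2 against Th0 were 0 with no filter, median-of-ratios scaling or no intensity trend, and 1 member passed after actinomycin with no intensity trend. The slope of Th1 against Th0 (3 genes) gave 6 with a pseudocount of 0.1, 1 with median-of-ratios scaling, 8 with quantile normalization and 1 with no intensity trend.

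Leaving out 1 condition at a time gave 345 to 991 genes from 4 to 8 h, 63 to 201 from 8 to 12 h, 0 to 23 from 12 to 16 h, 0 to 44 from 16 to 20 h and 0 to 54 from 20 to 24 h, with 1 to 2 members from 8 to 12 h, 0 to 1 from 16 to 20 h and 0 to 1 from 20 to 24 h. Leaving out 1 time point gave 0 to 1 members for Th2 against Th0, 84 to 3035 genes and 0 to 4 members for the slope of Th2 against Th0, 22 to 513 genes when Th2 was set against Th1, and 0 to 45 when Th1 was set against Th0. Without 1 actinomycin library, 536 to 3351 genes passed. Where 1 resting library was left out, the other was assumed to vary like the cultures.

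Quantile normalization moved the split of rises and falls: 551 and 716 at 4 h (284 and 868 as deposited), 1076 and 1107 at 8 h (700 and 1359), 1609 and 1409 at 12 h (1163 and 1787), 1609 and 1353 at 16 h (1219 and 1579) and 1864 and 1586 at 24 h (1389 and 1891). When genes under a mean of 5 RPKM were left out, it was 620 and 714 at 8 h, 1048 and 1005 at 12 h, 1088 and 855 at 16 h, 1268 and 999 at 20 h, 293 and 108 from 4 to 8 h (328 and 206) and 23 and 7 from 20 to 24 h (48 and 7), against 1410 and 1749 as deposited at 20 h. For the slope of Th2 against Th1, 33 rose and 56 fell with upper-quartile scaling and 40 and 66 with quantile normalization (30 and 87 as deposited), and for Th1 against Th0 it was 1 and 0 with median-of-ratios, 1 and 3 with upper-quartile and 3 and 5 with quantile scaling (2 and 1). Against -0.06 at 8 h, -0.07 at 12 h, -0.01 at 16 h and -0.01 at 20 h, quantile normalization gave medians over all genes of 0.08, 0.10, 0.11 and 0.12, and median-of-ratios scaling 0.05 at 8 h and 0.05 at 12 h. At 24 h the median over all genes was -0.04 without further scaling, 0.13 with quantile normalization, 0.10 with median-of-ratios scaling and -0.15 without the erythroid genes in the scaling.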
